A study of Homo sapiens with 16 samples.

Results

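Downstream-of-gene transcripts (DoGs) are RNAs that continue past the annotated end of a gene because RNA polymerase II did not stop there. The DoGs described here are 596 readthrough regions of under 100 kb, out of 3139 DoGs with an expression value in HEK293 cells, an established human embryonic kidney cell line. Each was listed in both replicates of stressed cells in both preparations that recover semi-extractable RNA. None was listed in both replicates of a stressed aqueous-phase preparation, and none was listed in any library of unstressed cells. These listings chose the set, so its high level in those preparations and its rise under stress are a description and not a result. Of the 1290 genes listed in all 4 stressed semi-extractable libraries, 1019 met the condition on the aqueous preparations, 868 were in no control list and 867 had an expression value. Averaged over both stressed 2nd-step replicates, the region was under 100 kb for 596 of these, and 271 were longer.

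Transcription normally ends after the nascent RNA is cut near a polyadenylation signal, usually AAUAAA, often followed by a stretch rich in G and U. The polymerase continues for some distance while the uncapped downstream RNA is degraded behind it. Osmotic stress is known to weaken this step, and the uncut RNA then extends into the region between genes or across the next gene.

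The 16 libraries came from 2 biological replicates of 8 groups, which are 4 preparations of wild-type cells with or without stress. Stressed cells received 200 mM sorbitol, a hyperosmotic agent, together with 100 µg/mL cycloheximide, an inhibitor of translation elongation, for 9 h, and control cells received neither. The conventional preparation and the SERIPH 1st-step fraction hold the aqueous phase of an acid phenol extraction. hiAGPC (labelled improved extraction) applies heat to the whole lysate and gives a mixed pool, whereas the SERIPH 2nd-step fraction is taken by heat from the washed interphase after the aqueous phase is removed. Libraries were made from 100 to 500 ng of RNA for the 1st-step fraction and 5 to 50 ng for the 2nd-step fraction. The input of the other preparations is not stated, and effects of input and of preparation cannot be told apart. Between 289 and 689 genes were listed in each control library, 343 to 418 in each stressed aqueous library, 1789 and 1747 in stressed hiAGPC and 2387 and 2449 in the stressed 2nd-step fraction. Values are FPKM, reads scaled to the length of the region and to the size of the library, over a single region per gene that was the same in every library. Only a nominal range of sequencing depth is stated for the libraries, the depth of each is not in these files, FPKM were given to 2 decimals, and gene-body levels or cell-line markers were not analysed here.

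Sequences at the ends of 10 of these genes are shown because they mark where readthrough began. The genes are among the highest or lowest in the comparisons below, or had the largest gains in region length. Positions are on GRCh38, and the gene end is the base before the listed region starts. The windows of 30 bases hold a signal that starts in the last 50 bases before the gene end, with AATAAA in capitals.
CPNE7: ggcttcaggagtAATAAAgtgtcaccctat
USP9X: cacatatacaaaAATAAAactttataaatt
EGLN2: tgtcagccaagaAATAAAagtttacctcag
IHH: tcttccttttgtAATAAAaattatttaagt
PTGES3: atttgattgaAATAAAactaaatgtgttgt
PNP: taatgttgtcagAATAAAgagaaagatgaa
These windows are at chr16:89597210-89597239 (plus strand), chrX:41236547-41236576 (plus), chr19:40808396-40808425 (plus), chr2:219054431-219054460 (minus), chr12:56663358-56663387 (minus) and chr14:20477056-20477085 (plus). The signal started 21 to 40 bases before the gene end.

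The first 100 bases of readthrough follow for 6 genes, with TGTGT, a short example of a sequence rich in G and T, in capitals.
CDK10: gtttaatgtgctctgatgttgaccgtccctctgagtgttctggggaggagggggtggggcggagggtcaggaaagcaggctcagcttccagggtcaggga
RBM5: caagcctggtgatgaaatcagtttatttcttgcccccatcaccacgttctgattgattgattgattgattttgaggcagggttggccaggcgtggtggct
SPAG9: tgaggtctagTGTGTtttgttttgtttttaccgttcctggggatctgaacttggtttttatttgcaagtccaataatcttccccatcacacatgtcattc
USP9X: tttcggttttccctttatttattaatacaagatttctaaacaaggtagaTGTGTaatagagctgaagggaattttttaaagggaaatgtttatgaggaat
IHH: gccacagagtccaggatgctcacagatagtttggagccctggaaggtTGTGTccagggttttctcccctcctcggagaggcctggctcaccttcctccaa
GTF2H1: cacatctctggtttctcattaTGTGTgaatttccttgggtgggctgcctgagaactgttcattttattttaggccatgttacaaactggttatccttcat
They lie at chr16:89696370-89696469 (plus), chr3:50119022-50119121 (plus), chr17:50962074-50962173 (minus), chrX:41236580-41236679 (plus), chr2:219054324-219054423 (minus) and chr11:18367046-18367145 (plus). CDK10 and RBM5 held neither AATAAA nor ATTAAA in the last 50 bases and no TGTGT in this window. They had the largest differences between the stressed 2nd-step fraction and hiAGPC. CPNE7, also higher in the 2nd-step fraction, held AATAAA, and no relation between these letters and the differences was tested.

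Over the whole set, the letters at the gene end were close to those of all DoGs. AATAAA was found on the sense strand in the last 50 bases of 306 of the 596 genes (51.3%), against 52.1% of all DoGs and 48.7% of the 271 longer ones. The variant ATTAAA was found in 18.5% and 16.5% of the set and of all DoGs, and a gene can hold both. TGTGT was in the first 100 bases past the end of 22.5% and 22.2% of them. On the other strand, AATAAA was found in 6.2% of both and TGTGT in 8.2% and 9.5%. The median GC content of the first 10 kb of readthrough was 45.76%, against 46.08% over all DoGs. Replication-dependent histone genes typically end in a stem-loop in place of a poly(A) signal. The set held 9 histone genes, grouped by symbol whether or not of this class and chosen after the values were seen. The stem-loop letters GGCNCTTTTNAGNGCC lay within 100 bases either side of the end of 5 of these 9 (H1-1, H2BC13, H3C8, H4C11 and H4C7), on the sense strand. They were found at no other gene of the set and at 11 of 3135 DoGs (0.351%) in all. AATAAA lay in the last 50 bases of H2BC21 and H2BC6, which lacked the stem-loop letters, and of H4C11, which held both.

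The 596 genes were 543 protein-coding genes and 53 lncRNA genes on 23 chromosomes. Their median length was 30.2 kb, against 37.3 kb for the genes of the longer DoGs and 31.9 kb for all DoGs. The next gene on the same strand began a median 34.6 kb past the gene end, against 49.8 kb for the longer DoGs and 38.9 kb for all. For 314 of the 596 (52.7%) the longest listed region overlapped no other gene on its strand. That share was 17.0% among the longer DoGs, whose limit on length also sets how far a region can reach, and 58.6% among all DoGs. The FPKM of the other 282 includes any RNA of the gene they run across, and this split is carried through the comparisons below. On the opposite strand, 440 of the regions (73.8%) overlapped a gene.

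In the semi-extractable preparations of stressed cells these DoGs stood well above every other library. Median FPKM over the 596 was 0.04 in each of the 4 control libraries of the aqueous preparations, 0.05 and 0.05 in control hiAGPC and 0.06 and 0.06 in the control 2nd-step fraction. In stressed cells it was 0.18 and 0.16 in conventional RNA, 0.16 and 0.17 in the 1st-step fraction, 0.775 and 0.755 in hiAGPC and 1.13 and 1.13 in the 2nd-step fraction. For 549 members all 4 stressed semi-extractable libraries were above all 12 others, a pattern the rule favours and 72.6% of all DoGs also had. In unstressed cells, between 39 and 68 members per library were listed at 0.

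**Figure D1:**
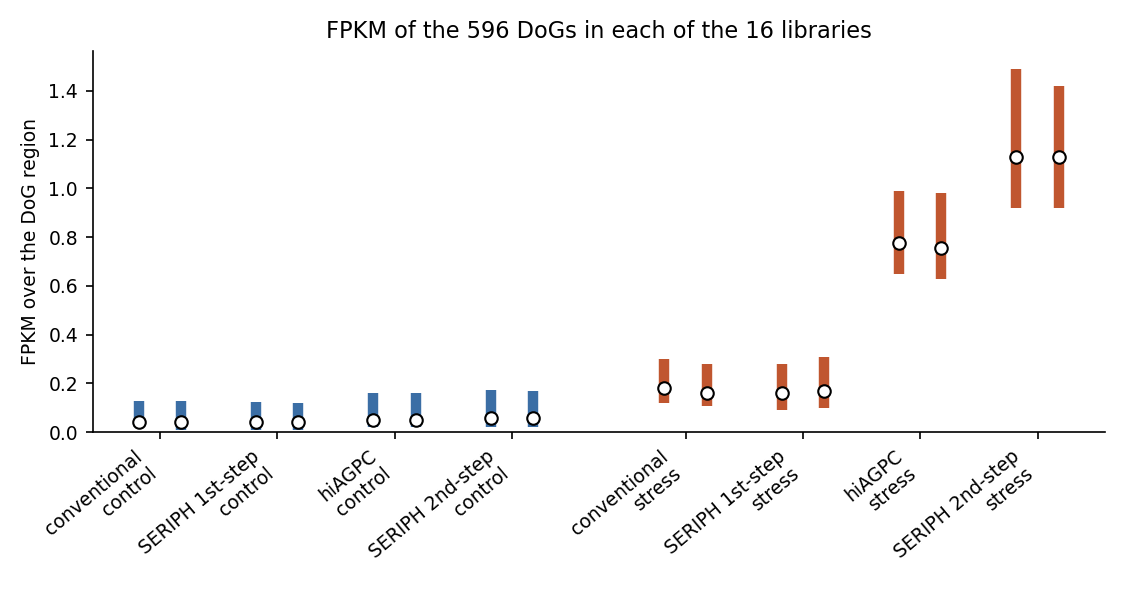
FPKM of the 596 DoGs in each library, grouped by preparation and condition, with control in blue and stress in orange. Circles are medians and bars run from the lower to the upper quartile over DoGs, and the 2 bars of a group are its 2 replicates; medians were 1.13 in both stressed 2nd-step libraries, 0.775 and 0.755 in stressed hiAGPC and at most 0.18 elsewhere.

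The rise under stress and the excess over the aqueous preparations were used by the rule, so their counts are given with no reading. A DoG was called at a limma adjusted p under 0.05 and a change of at least 1 on the log2(FPKM + 0.1) scale. By this call, 555 of the 596 were higher and 1 (MAMDC4) lower in stressed than in control 2nd-step RNA, where 74.6% of all DoGs were called higher and 11.7% lower. In hiAGPC, 525 were higher and 0 lower, beside 70.2% and 9.14% of all DoGs. There the unadjusted limma p was under 0.05 for 584 (98.0%), beside 93.9% of all DoGs. In conventional RNA, 200 were higher and 3 (ACOT12, ACTN2 and HCG18) lower, beside 22.2% and 11.0%. In the 1st-step fraction, 192 were higher and 3 (ACOT12, COQ3 and HCG18) lower, beside 21.8% and 10.6%. The median log2 change under stress was 2.92 in the 2nd-step fraction, 2.47 in hiAGPC, 0.74 in conventional RNA and 0.71 in the 1st-step fraction. These comparisons share no library, but the preparations were made in parallel from the same samples, so they are not independent.

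Between stressed preparations, 550 members were higher and 3 (CS, GTF2H1 and PTGES3) lower in the 2nd-step than in the 1st-step fraction, beside 79.3% and 2.96% of all DoGs. In hiAGPC against conventional RNA, 508 were higher and 2 (CS and PTGES3) lower, beside 68.8% and 0.478%. Against this direction, 11 members (1.85%) had every stressed aqueous library above both stressed 2nd-step libraries, as had 5.29% of all DoGs. They were CDC42EP2, CS, EIF3L, FASN, GTF2H1, H4C11, PNP, PTGES3, SLC1A5, TAF1B and TIMM23, picked after their values were seen, and all 11 regions overlapped another gene on their strand.

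The rule did not use the difference between the 2nd-step fraction and hiAGPC. It did ask for a listing in both and for a 2nd-step region of under 100 kb. FPKM were taken over a region as long as the longest listed one for 582 of the 596 members. The mean 2nd-step region was the longer for 411, so 2nd-step coverage could often set the stretch measured. The effect of this on the difference was not tested. In stressed cells these DoGs were higher in the 2nd-step fraction, by a median of 0.52 on the log2(FPKM + 0.1) scale with quartiles of 0.30 and 0.74. The median over all 3139 DoGs was also 0.52, and it was 0.64 over the 271 longer ones. Of the 596, 34 (5.7%) were called higher and 2 (0.336%) lower by limma with Benjamini-Hochberg adjustment. The background was 6.91% of all DoGs called higher and 1.75% called lower, so the share called higher was near that of all DoGs. By the adjusted p alone, 450 were higher and 6 lower, beside 68.7% and 4.75% of all DoGs. Both 2nd-step libraries were above both hiAGPC libraries for 532 members and below both for 16, beside 79.3% and 7.74%. Subtracting every library's median took 0.48 off this comparison and left 0 members called higher and 5 lower.

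**Figure D2:**
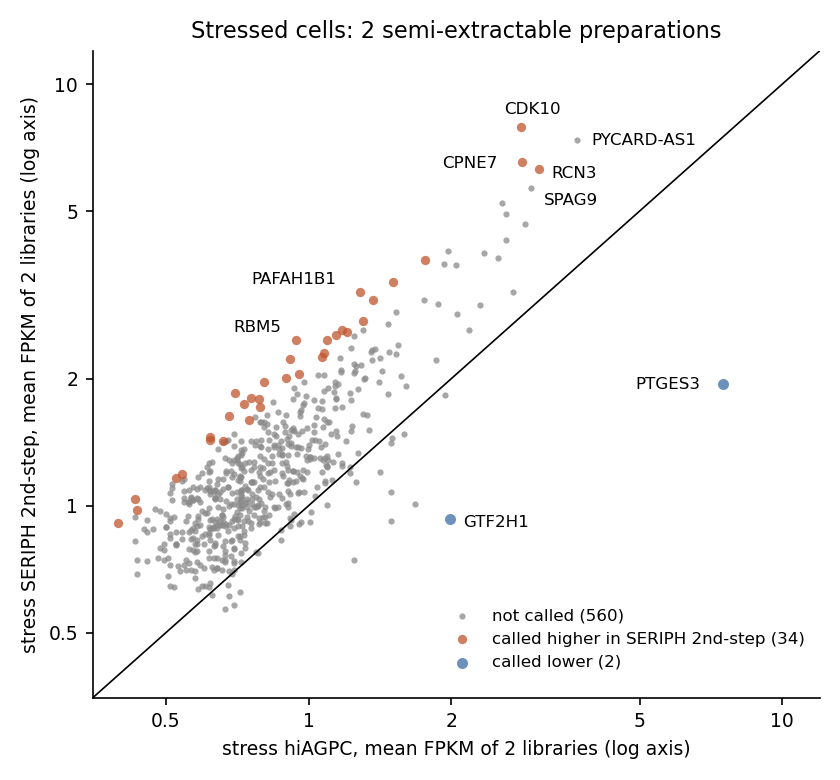
Mean FPKM of the 2 stressed 2nd-step libraries (vertical, log axis) against that of the 2 stressed hiAGPC libraries (horizontal, log axis), each point a DoG of the set and the line marking equal values. Orange points were called higher in the 2nd-step fraction (34) and blue points lower (2), and most of the 560 others also lie above the line.

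The largest difference was downstream of CDK10, which encodes a cyclin-dependent kinase that pairs with cyclin M. Its region, 15 kb at chr16:89696370-89711369, had FPKM of 8.07 and 7.76 in the stressed 2nd-step fraction, 3.01 and 2.61 in hiAGPC, 0.76 and 0.63 in the 1st-step fraction and 0.52 and 0.39 in conventional RNA. In control cells the values were 0.44 and 0.45 in the 2nd-step fraction, 0.16 and 0.15 in hiAGPC, 0.12 and 0.1 in the 1st-step fraction and 0.09 and 0.1 in conventional RNA. The replicates of each stressed preparation lay apart from those of the others, with the 2nd-step fraction highest. The log2 change from hiAGPC to the 2nd-step fraction was 1.46 (SE 0.12, limma adjusted p = 2.15e-06) in stressed cells. The region ended short of the next gene on its strand, which lay 15.5 kb away.

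RBM5, a splicing regulator, was next. Its 35 kb region, chr3:50119022-50154021, had 2.56 and 2.37 FPKM in the stressed 2nd-step fraction, 0.99 and 0.89 in hiAGPC, 0.25 and 0.16 in the 1st-step fraction and 0.15 and 0.15 in conventional RNA. The log2 difference between the semi-extractable preparations was 1.30 (SE 0.16, limma adjusted p = 2.49e-05). All 4 lists gave it the same 35 kb, so the higher level came with no difference in listed length.

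LSMEM2, a membrane protein gene downstream of RBM5 on the same strand, had 1.9 and 1.8 FPKM against 0.76 and 0.64 in hiAGPC. PAFAH1B1, which encodes the dynein regulator LIS1, had 3.18 and 3.24 against 1.35 and 1.22, and PRR7-AS1, an antisense lncRNA, 2.41 and 2.05 against 0.94 and 0.89. Their log2 differences were 1.29 (SE 0.19), 1.26 (SE 0.12) and 1.20 (SE 0.29), with limma adjusted p of 9.99e-05, 4.2e-06 and 0.0029. For each of the 3 the 2nd-step and hiAGPC replicates did not overlap. The FPKM of PAFAH1B1 was taken over 105 kb and its 2nd-step regions were 60 kb in both replicates. Its longest listed region overlapped RAP1GAP2 on the same strand.

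The 34 members called higher were 31 protein-coding genes and 3 lncRNAs, with mean 2nd-step lengths of 10 to 81.2 kb and a median of 40 kb. Their listed length was the same in both preparations for 14, greater in the 2nd-step fraction for 19 and smaller for 1. The amino acid transporter gene SLC7A5, chosen here after its values were seen, had 1.83 and 1.66 FPKM against 0.77 and 0.69 in hiAGPC. Of the 34, 16 were among the 314 regions that overlapped no other gene on their strand (5.1%) and 18 among the 282 that did (6.38%). Over all DoGs these shares were 6.96% and 6.86%.

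Both members called lower in the stressed 2nd-step fraction ran into the next gene on their strand. PTGES3 encodes the HSP90 co-chaperone p23, and its 25 kb region took in ATP5F1B, the gene of the beta subunit of ATP synthase, which began 17.4 kb past the gene end. It had 2.02 and 1.86 FPKM in the 2nd-step fraction, 7.59 and 7.4 in hiAGPC, 26.44 and 22.14 in the 1st-step fraction and 17.19 and 18.5 in conventional RNA. It was thus lowest in the 2nd-step and highest in the 1st-step fraction, and no stressed group overlapped another. The log2 difference from hiAGPC was -1.90 (SE 0.13, limma adjusted p = 1e-06). GTF2H1 encodes a subunit of the transcription factor TFIIH, and its 30 kb region took in LDHA, the lactate dehydrogenase A gene, which began 27.5 kb past the end. It had 1.01 and 0.85 FPKM in the 2nd-step fraction and 1.89 and 2.09 in hiAGPC, a log2 difference of -1.02 (SE 0.15, limma adjusted p = 7.28e-05) that fell short of the fold asked for without replicate 2 of either preparation (-0.91 and -0.95).

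The next lowest log2 differences were those of CS, the citrate synthase gene (-0.68), TIMM23, a channel of the inner mitochondrial membrane (-0.67), and PNP, a purine salvage enzyme (-0.64). Their adjusted p were 0.000121, 0.00125 and 1.84e-05 by limma, short of the fold asked for. PNP had 0.93 and 0.91 FPKM in the stressed 2nd-step fraction, 1.48 and 1.5 in hiAGPC, 1.57 and 1.73 in the 1st-step fraction and 1.88 and 1.85 in conventional RNA, against 0.02 or 0.03 in every control library. It was thus induced by stress in every preparation and lowest in the 2nd-step fraction. With TAF1B (log2 difference -0.44, limma adjusted p = 0.00111) these made up the 6 members lower by the adjusted p alone, and all 6 regions overlapped another gene on their strand. Whether RNA of the overlapped genes accounts for these values was not tested. Of the 282 members with such an overlap 2 were called lower, and of the 314 with none 0 were, which is too few calls to compare. Over all DoGs the lower calls did not divide this way in stressed cells, with 1.85% of those that overlapped and 1.69% of those that did not.

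**Figure D3:**
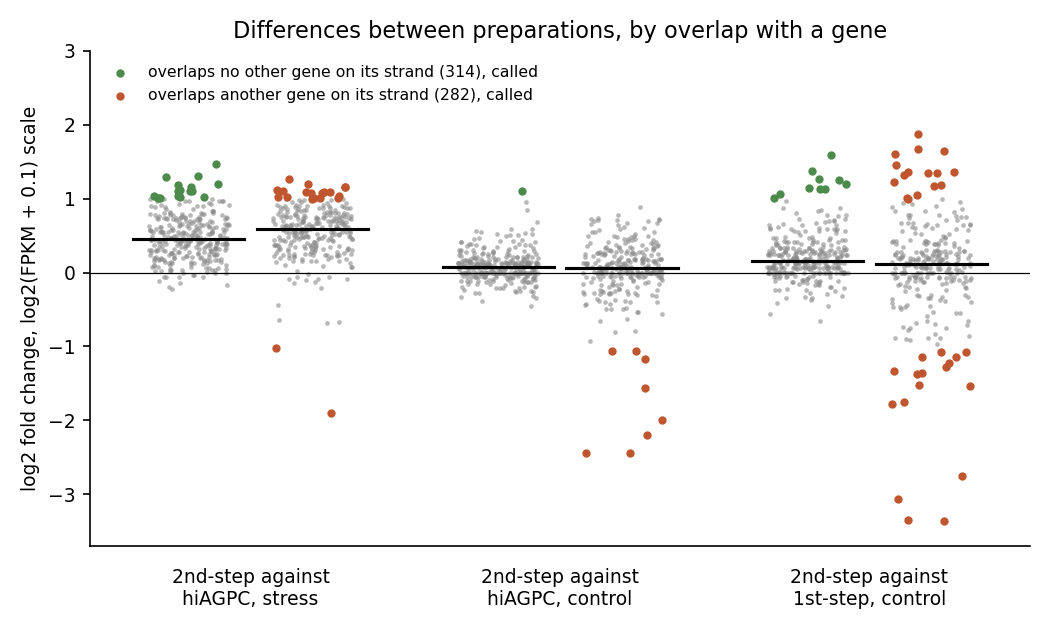
Log2 fold change on the log2(FPKM + 0.1) scale of each DoG in 3 comparisons, divided into the 314 whose longest region overlaps no other gene on its strand (left of each pair, calls in green) and the 282 that do (right, calls in orange). Grey points were not called and black lines are medians; every call below 0 is on the right of its pair, 2, 8 and 17 in the 3 comparisons.

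In unstressed cells the difference between the 2nd-step fraction and hiAGPC was smaller, with values near the lower limit of FPKM. The median log2 difference was 0.06 over the set and 0.11 over all DoGs. CDK10 was called higher (1 member, 0.168%) and 8 members (1.34%) were called lower, beside 0.86% and 1.47% of all DoGs. The rule left out genes listed in control libraries, which all DoGs include, so it favoured a lower share called higher in the set. CDK10 had a log2 difference of 1.10 (SE 0.12, limma adjusted p = 6.21e-05). The 8 were H4C7, GTF2H1, PTGES3, H4C11, UBE2D1, ARAF, TAF1B and TIMM23, and all 8 regions overlapped another gene on their strand. By the adjusted p alone, 87 were higher and 29 lower, beside 20.1% and 6.53% of all DoGs. Among all DoGs 2.78% of those with such an overlap were called lower and 0.544% of those without. The difference between conditions in this comparison was tested too. In stressed cells relative to control, 30 members (5.03%) were called higher and 0 lower, beside 5.58% and 1.15% of all DoGs.

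H4C7 encodes a histone H4, and its region for FPKM ran 27.4 kb and took in the linker histone gene H1-3, 11.6 kb past its end. In control cells it had 0.65 and 0.73 FPKM in conventional RNA, 0.93 and 0.65 in the 1st-step fraction, 0.48 and 0.46 in hiAGPC and 0.01 and 0.0 in the 2nd-step fraction. In stressed cells all 8 values lay between 0.77 and 1.14, with 0.94 and 0.99 in the 2nd-step fraction. The control log2 difference was -2.44 (SE 0.17, limma adjusted p = 3.12e-06), a value that depends on the constant added to an FPKM at 0. GTF2H1 and PTGES3 had -2.44 (SE 0.15, limma adjusted p = 1.35e-06) and -2.20 (SE 0.13, limma adjusted p = 1.35e-06). In control cells the GTF2H1 region had 0.24 and 0.23 FPKM in the 2nd-step fraction against 1.78 and 1.66 in hiAGPC and 2.99 and 2.94 in conventional RNA.

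UBE2D1, a ubiquitin-conjugating enzyme, showed how the measured region could exceed the listed one. It was listed at 10 kb in both hiAGPC lists and in 2nd-step replicate 1 but at 140 kb in 2nd-step replicate 2, and FPKM were taken over the 140 kb, which hold the mitochondrial transcription factor gene TFAM. Control values were 1.27 and 1.31 in conventional RNA, 0.96 and 1.24 in the 1st-step fraction, 0.99 and 0.91 in hiAGPC and 0.25 and 0.26 in the 2nd-step fraction. Stressed values were 1.95 and 1.94 in hiAGPC and 1.83 and 1.83 in the 2nd-step fraction. For 582 of the 596 members the FPKM region was as long as the longest region in the 16 lists, to within 1 base.

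Some members had FPKM in unstressed cells although no control library listed them. There were 41 members at 0.5 FPKM or more in both control conventional libraries, a limit chosen after the values were seen. All 41 regions overlapped another gene on their strand, whose part in these values was not tested. Any gene with a listed control region had been left out by the rule, so this count is a description and not a result. Its share over all DoGs was not computed.

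**Figure D4:**
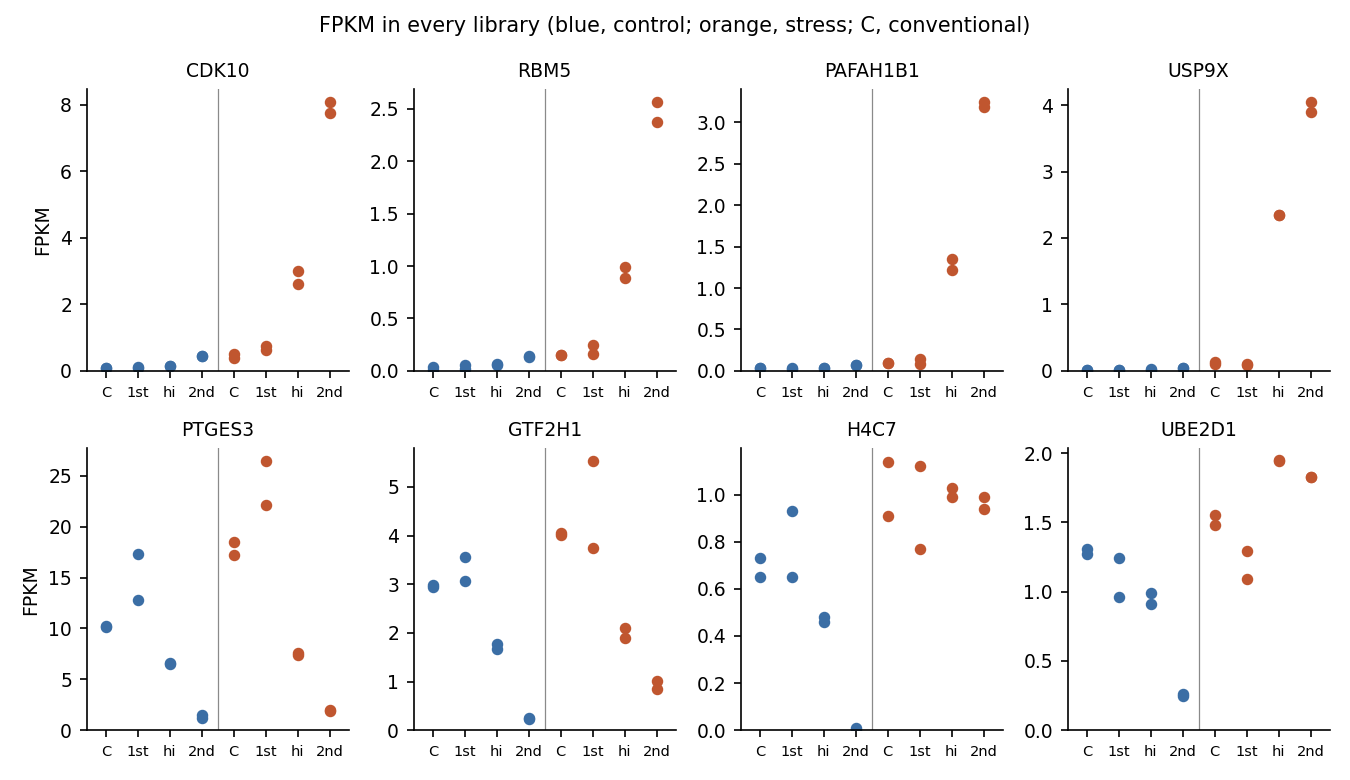
FPKM of 8 regions in every library, with 1 point per replicate, control in blue and stress in orange, over conventional RNA (C), SERIPH 1st-step (1st), hiAGPC (hi) and SERIPH 2nd-step (2nd), each panel with its own axis from 0. CDK10, RBM5, PAFAH1B1 and USP9X are highest in the stressed 2nd-step libraries, whereas PTGES3 and GTF2H1 are lowest in the 2nd-step libraries of both conditions, and H4C7 and UBE2D1 are lowest in the control 2nd-step libraries.

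In unstressed cells the 2nd-step fraction also differed from the 1st-step fraction, with 26 members (4.36%) called higher and 17 (2.85%) lower. This compares with 11.0% and 3.28% of all DoGs, and the median log2 difference was 0.13 in the set and 0.17 over all. All DoGs include genes listed in control libraries, which the rule left out of the set. The lower share called higher in the set was thus favoured by the rule and is not a result. The 3 largest were PTGES3 at -3.37 (SE 0.13), GTF2H1 at -3.35 (SE 0.15) and H4C7 at -3.07 (SE 0.17), with limma adjusted p of 2.68e-09, 9.29e-09 and 5.94e-08. All 17 that were lower overlapped another gene on their strand. Over all DoGs, 6.32% of those with such an overlap were called lower and 1.14% of those without. The rule's bar on control listings could favour this division in the set, which was not tested. Among the 26 that were higher, 10 overlapped none, including KDM4B, which encodes a histone demethylase. KDM4B had 0.4 and 0.41 FPKM in the control 2nd-step fraction, 0.1 and 0.12 in the 1st-step fraction and 0.17 and 0.19 in hiAGPC, a log2 difference between the SERIPH fractions of 1.27 (SE 0.08, limma adjusted p = 1.3e-07). In stressed cells it had 2.56 and 2.5 in the 2nd-step fraction and 1.3 and 1.19 in hiAGPC. CDK10 was the single member called higher both in this comparison and between the stressed 2nd-step fraction and hiAGPC, 2.94% of the 34 and 3.85% of the 26. The same overlap over all DoGs was not computed, so this is a description only. With library medians subtracted, the calls were 14 higher and 26 lower. By the adjusted p alone, 186 were higher and 63 lower, beside 36.2% and 10.3% of all DoGs.

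Few differences were found between the stressed aqueous preparations, or between control hiAGPC and conventional RNA. In stressed cells, 0 members were called between the 1st-step fraction and conventional RNA, as were 0.0% of all DoGs, by limma with a median log2 difference of -0.04. By the adjusted p alone, 21 were higher and 27 lower, beside 3.09% and 3.22% of all DoGs. An unadjusted p under 0.05 was found for 189 (31.7%), near the 29.7% of all DoGs. Between control hiAGPC and conventional RNA, limma called 0 members, against 1.08% of all DoGs called higher and 0.0% lower. Here too the rule, by leaving out genes with a control listing, favoured a lower share in the set. By the adjusted p alone, 44 were higher and 14 lower, beside 11.5% and 2.01% of all DoGs. The unadjusted p was under 0.05 for 119 (20.0%), beside 25.5% of all DoGs. The median log2 difference was 0.06, on FPKM whose upper quartile was 0.16 in each hiAGPC library. Single listings in the stressed aqueous libraries were allowed by the rule, and 47 members had at least 1, with 16 and 10 members in the conventional lists and 14 and 19 in the 1st-step lists.

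Averaged over replicates, listed regions were longer in the 2nd-step fraction than in hiAGPC for most members. The median region was 30 and 40 kb in the stressed 2nd-step replicates and 25 and 20 kb in the hiAGPC replicates. The mean 2nd-step length was greater for 411 members (69.0%), equal for 128 (21.5%) and smaller for 57 (9.56%), with a median ratio of 1.31. For 212 members (35.6%) the shorter 2nd-step region exceeded the longer hiAGPC region, and the opposite held for 15 (2.52%). Without the limit on length, the mean 2nd-step region was greater for 76.1% of the 867 DoGs, and these shares were 46.8% and 2.08%. These are descriptions, since the rule capped the 2nd-step length, and a permutation of 2 against 2 libraries cannot give a p below 0.333, the exact two-sided value here. Replicates differed too. The 2nd-step regions were the same length in both replicates for 264 members (44.3%), longer in replicate 2 for 233 and shorter for 99. With replicate 1 alone the 2nd-step region was longer for 294 members and shorter for 86, with a median ratio of 1.0, and with replicate 2 alone it was 1.33.

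**Figure D5:**
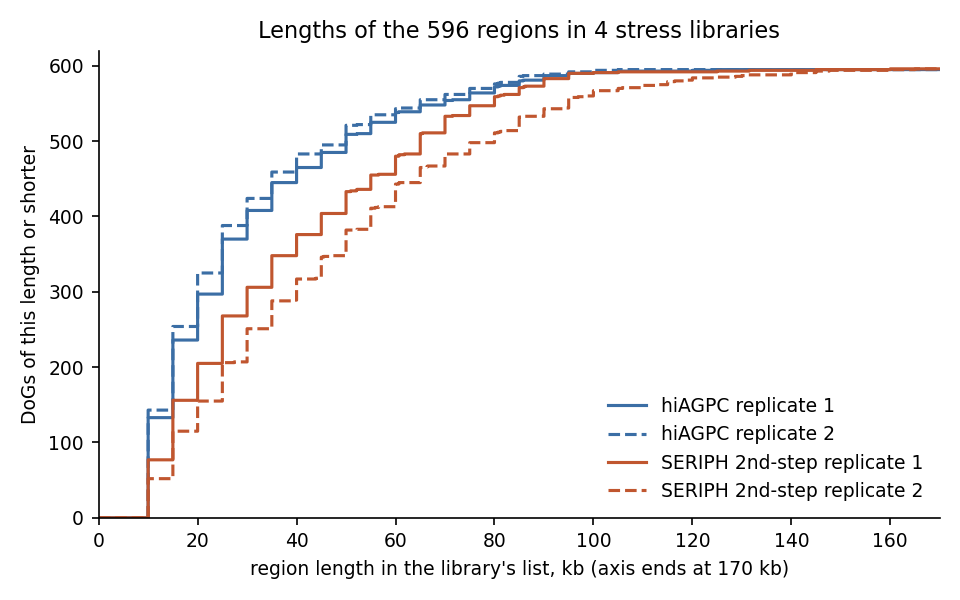
Number of the 596 DoGs (vertical) whose region is at most the length on the horizontal axis, in kb, in each stressed hiAGPC list (blue) and 2nd-step list (orange), solid for replicate 1 and dashed for replicate 2. Medians were 30 and 40 kb in 2nd-step replicates 1 and 2 against 25 and 20 kb in hiAGPC, and the axis ends at 170 kb.

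The largest gains in length were at MAFA, an activator of the insulin gene, EGLN2, a prolyl hydroxylase that acts on hypoxia-inducible factor, and IHH, which encodes Indian hedgehog. EGLN2 was listed at 10 kb in both hiAGPC lists and at 95 kb in both 2nd-step lists, chr19:40808445-40903444, a ratio of 9.5. Its FPKM over the 95 kb were 2.42 and 2.28 in the 2nd-step fraction, 1.39 and 1.37 in hiAGPC, 0.13 and 0.17 in the 1st-step fraction and 0.18 and 0.15 in conventional RNA. MAFA went from 10 kb in both hiAGPC lists to 50 and 140 kb, and IHH from 10 kb to 65 and 118 kb, so for these the 2nd-step replicates differed by more than 1.5 times. EGLN2 was therefore the one of the 3 whose extent was the same in both replicates.

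The greatest loss was at PYCARD-AS1, an antisense lncRNA beside the gene of an inflammasome adaptor. It was listed at 268 and 323 kb in hiAGPC and at 55 kb in both 2nd-step lists, a ratio of 0.186. Its FPKM were nonetheless among the highest, at 7.57 and 7.14 in the 2nd-step fraction and 3.78 and 3.6 in hiAGPC, over a region of 412.4 kb that crosses TRIM72, ITGAM, ITGAX and other genes. ATP5PF, a subunit gene of ATP synthase, was listed at 60 and 40 kb in hiAGPC and 10 kb in both 2nd-step lists. BRK1, a subunit of the actin-regulating WAVE complex, went from 30 kb to 10 kb, with the same length in both replicates of each preparation.

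The limit of 100 kb fell on a continuous range. The longest members by mean length were BRIP1, a helicase of DNA repair listed at 70 and 128.7 kb in the 2nd-step fraction, CDAN1 at 95 and 100 kb and BCL2L11, the gene of the apoptosis protein BIM, at 85 and 110 kb, the last 2 with the same mean of 97.5 kb as EIF5B. Just outside were PGK1 at 120 and 80 kb, GATAD2B at 85 and 115 kb and FAM171A2 at 50 and 150 kb, each with a mean of 100 kb. Their stressed 2nd-step FPKM were 0.96 and 0.91, 1.07 and 1.0 and 1.16 and 1.19 inside, and 1.05 and 1.08, 1.76 and 1.75 and 1.23 and 1.27 outside. At the short end, 34 members were 10 kb in all 4 lists, the smallest length the caller kept, among them FAM184B, TBC1D25 and DLGAP4. DLGAP4, which encodes a synaptic scaffold protein, had 0.79 and 0.63 FPKM in the 2nd-step fraction and 0.64 and 0.56 in hiAGPC, groups whose values overlapped.

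By length, 108 members were at 10 to under 20 kb, 198 at 20 to under 40 kb, 128 at 40 to under 60 kb, 102 at 60 to under 80 kb and 60 at 80 kb or more. Median FPKM in the stressed 2nd-step fraction over these classes was 1.10, 1.04, 1.13, 1.23 and 1.35, and the median log2 difference from hiAGPC was 0.40, 0.43, 0.62, 0.60 and 0.58. Across the 596 members Spearman's rho was 0.22 between length and FPKM and 0.24 between length and the log2 difference. These points share the same libraries and the same reads define both measures, so they are a description of weak relations.

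Apart from CDK10 and PYCARD-AS1, the highest regions were those of CPNE7, RCN3 and SPAG9. CPNE7, a calcium-dependent membrane-binding protein whose gene lies upstream of CDK10 on the same strand, had 6.69 and 6.39 FPKM in the stressed 2nd-step fraction and 3.05 and 2.58 in hiAGPC. RCN3, a calcium-binding protein of the endoplasmic reticulum, had 6.38 and 6.17 against 3.2 and 2.94, and 0.0 in both control conventional libraries. SPAG9, a scaffold for JNK signalling and motor proteins, had 5.65 and 5.67 against 3.06 and 2.85. Their 81.2, 40 and 90 kb were the same in all 4 stressed semi-extractable lists. In each case the 2nd-step replicates were above those of hiAGPC. The CPNE7 region overlapped DPEP1 and SPATA33 on its strand, and the RCN3 region overlapped PRRG2.

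The set was spread over gene classes that were grouped by symbol, in which lncRNAs named after a neighbouring gene can be counted with that gene's class. Of all DoGs 19.0% were members. Among genes of transcription and 3′ end processing 11 of 43 (25.6%) were members, including WDR33, which binds the AAUAAA signal, INTS4 of the Integrator complex and GTF2B. WDR33 had 1.35 and 1.23 FPKM in the stressed 2nd-step fraction, 0.75 and 0.86 in hiAGPC and 0.14 and 0.16 in conventional RNA, over 15 kb in all 4 lists. GTF2H1 was the only one of the 11 called, and the highest was POLR1C, a subunit of RNA polymerases I and III, at 1.6 and 1.39 against 1.06 and 0.99 in hiAGPC.

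Protein kinases and phosphatases gave 20 of 77 (26.0%), among them PPP1R15A, which reverses the phosphorylation of eIF2 alpha. CDK10 was the 1 of these 20 called, and the median log2 difference of the 2nd-step fraction from hiAGPC was 0.54 in the members and 0.58 in all 77. Cytosolic ribosome and translation genes gave 18 of 79 (22.8%), with 0 called higher and 0 lower, a median of 0.55 against 0.45 over all 79 and lengths from 10 to 97.5 kb. The highest, RPS28, had 3.06 and 2.65 FPKM in the stressed 2nd-step fraction, 2.04 and 2.07 in hiAGPC and 1.77 and 1.6 in the 1st-step fraction, over 85.8 kb that cross ANGPTL4 and RAB11B.

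Among ubiquitin and proteasome genes 17 of 91 (18.7%) were members and 0 were called, with a median of 0.44 against 0.51. USP9X, a deubiquitinase, had 4.04 and 3.89 FPKM in the stressed 2nd-step fraction, 2.35 and 2.34 in hiAGPC, 0.09 and 0.11 in the 1st-step fraction and at most 0.04 in control cells. Its 95 kb, chrX:41236580-41331579, were listed in all 4 libraries, and its log2 difference from hiAGPC was 0.73 (SE 0.09, limma adjusted p = 1.64e-05). Zinc finger genes gave 15 of 95 (15.8%), with ZBTB7B and ZNF490 called higher and a median of 0.70 against 0.46. ZNF446 was the highest of them, with 3.02 and 3.13 against 1.76 and 1.75 in hiAGPC.

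Chromatin modifiers gave 8 of 37 (21.6%), led by KDM4B, and membrane trafficking genes gave 11 of 65 (16.9%), led by ARL16. ARL16, a small GTPase, had 2.59 and 2.63 FPKM in the stressed 2nd-step fraction against 1.23 and 1.12 in hiAGPC. Its region overlapped OXLD1 on the same strand. Splicing factors and RNA helicases gave 9 of 70 (12.9%), led by RBM5, with 1 called and a median of 0.36 against 0.62. Mitochondrial ribosome, respiration and import genes gave 7 of 49 (14.3%), led by MRPL45, a subunit of the mitochondrial ribosome, at 2.08 and 2.02 against 0.96 and 0.95. Solute carriers gave 8 of 48 (16.7%), with SLC7A5 called higher, and the glutamine transporter gene SLC1A5 had 2.21 and 2.21 against 1.89 and 1.82, below its 3.38 and 2.97 in the 1st-step fraction.

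Chaperone genes gave 2 of 18 (11.1%) and DNA repair genes 1 of 21 (4.76%), lists too short to read these shares against that of all DoGs. Grouping by symbol also left out members with such roles, such as the co-chaperone gene PTGES3 and the repair helicase gene BRIP1, so these counts are incomplete. DNAJC9 had 0.95 and 0.95 FPKM in the stressed 2nd-step fraction and 0.81 and 0.84 in hiAGPC, and FANCM, a helicase, had 0.79 and 0.87 against 0.73 and 0.7. Their log2 differences of 0.18 and 0.19 did not pass, with limma adjusted p of 0.28 and 0.104. Among lncRNAs, antisense genes gave 26 of 127 (20.5%) with PRR7-AS1 and SGSM2-AS1 called higher, divergent ones 8 of 32 (25.0%) led by ZDHHC12-DT, and small RNA hosts 3 of 18 (16.7%). SNHG19, a host of small nucleolar RNA, had 2.23 and 1.97 against 1.31 and 1.03 in hiAGPC.

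Readthrough also joined members to their neighbours. The gene body of 12 members was overlapped, on the same strand, by another gene's DoG in both stressed 2nd-step lists, for example PRKD2 by that of SLC1A5, MYBL1 by that of VCPIP1, PPP2R5A by that of DTL and MUC4 by that of TNK2. For PRKD2 and MYBL1 the upstream DoG was itself a member. The longest region of 15 members overlapped the gene of another, such as RPL6 with HECTD4, RPS13 with PLEKHA7 and RAB10 with GAREM2. For these neighbours, reads of the upstream DoG and of the downstream gene could not be told apart in the FPKM.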

How the data were processed

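RNA-seq of 16 HEK293 libraries was analysed from a list of DoG regions per library and a table of FPKM. The authors trimmed reads with fastp 0.25.0, removed ribosomal reads with Bowtie2 2.5.4, kept unique STAR 2.7.11b alignments to GRCh38 with GENCODE v49, and called DoGs with ARTDeco. The deposited FPKM values were scaled by region length and library, and the reads used for scaling are not given in the sources used here. The region length in the lists (unit other, in bases) was computed here as end minus start of the authors' deposited regions. No read counts were used, so no counting interval is given.

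Here FPKM were tested as log2(FPKM + 0.1) with limma 3.58.1 in R 4.3.3, with 8 group means, an intensity trend and Benjamini-Hochberg adjustment over all 3139 DoGs. Calls needed an adjusted p under 0.05 and an absolute log2 change of at least 1. P-values measure the spread between the 2 libraries of each group. The fit was tested on simulated data. Genes and sequences came from GENCODE v44 on GRCh38. Python 3.11.15 and pandas 2.3.3 were used for tables. Alternatives were other pseudocounts, centring, a filter, a replicate block, the 4 libraries alone, no trend, the adjusted p alone, each replicate left out, no same-strand overlap, and other limits on length or listing.

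The members, gene lists and comparisons were chosen with earlier results of these data known. Genes named are the 5 highest and 5 lowest log2 differences between the stressed 2nd-step fraction and hiAGPC, the 5 highest FPKM, the 3 largest and smallest length ratios, the 3 longest, shortest and just outside, the 3 largest calls in each other comparison, and the highest of each list. All other genes named, such as UBE2D1, WDR33, SLC7A5 and the histone genes, were chosen after their values were seen.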

Additional observations from a re-analysis of the deposited data

Results flagged for a closer look

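For 30 members (5.03%), the log2 difference of 2nd-step from hiAGPC was called higher in stressed than in unstressed cells, and for 0 lower. By this limma test of the difference between both conditions, 5.58% of all DoGs were called higher and 1.15% lower. The share of members called higher was thus near that of all DoGs. Unadjusted p was under 0.05 for 359 members (60.2%), near the 57.1% of all DoGs. The largest were H4C7 (log2 2.38), H4C11 (1.89), UBE2D1 (1.48) and GTF2H1 (1.42), which had been called lower in control 2nd-step RNA and whose regions overlap another gene on their strand. In stressed cells the log2 difference was -0.06 for H4C7 and -1.02 for GTF2H1, so neither was higher in the 2nd-step fraction than in hiAGPC. The count was 46 with a pseudocount of 0.01, beside 6.82% of all DoGs, and 0 with a pseudocount of 1, beside 0.0319%. Subtracting library medians left 6 members higher, beside 0.892% of all DoGs, and turned the balance over all DoGs to 28 higher and 121 lower. These rest on control FPKM with a median of 0.05 or 0.06. The part of these low values in the count was not tested.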

How the results depend on the processing

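The number of members stayed within 1.5 times of 596 under every other limit on length or listing (401 to 871), and of the values recomputed for named genes 204 kept their side of the threshold, 22 fell below it, 5 newly passed it and 0 reversed. GTF2H1 and RCN3 (stressed 2nd-step against hiAGPC) were among the 22 when a replicate was left out, RCN3 at 0.99 without 2nd-step replicate 1 and 0.95 without hiAGPC replicate 2. In the order stressed 2nd-step against hiAGPC (36 members called), control 2nd-step against hiAGPC (9), control hiAGPC against conventional (0), control 2nd-step against 1st-step (43) and stressed 1st-step against conventional (0), the adjusted p alone gave 456, 116, 58, 249 and 48. A pseudocount of 0.01 gave 56, 32, 19, 173 and 2. A pseudocount of 1 gave 2, 2 and 2 in the 3 comparisons that had calls. Members with no same-strand overlap gave 16, 1 and 10 in these, and centring gave 5 for stressed 2nd-step against hiAGPC. Leaving out each replicate in turn gave 26 to 53, 9 to 10, 0 to 1, 40 to 50 and 0 to 2 (2 without stressed 1st-step replicate 2), and the lone sample was assumed to vary like the other groups. The number of members was 681 without replicate 1 and 727 without replicate 2. The median length ratio was 1.0 without replicate 2 and 1.333 without replicate 1, and 1.0 with the shorter of the 2 regions. The causes were not tested, other than the smaller set tested where overlaps were left out.

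Same-numbered replicates did not deviate together, with correlations between -0.073 and 0.057 over the 12 pairs of groups within a condition, although the extractions were made in parallel from the same samples. A replicate block gave 36, 9, 0, 43 and 0 calls and changed none of these counts. FPKM limit what low values show, since the smallest step was 0.01 and only a nominal range of depth is stated.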
